A study of Mus musculus with 6 samples.

Results

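Gfap, Vim, Nes and Synm, the genes of the intermediate filament proteins glial fibrillary acidic protein, vimentin, nestin and synemin, were followed across the cell types of the postnatal mouse brain after intraventricular injection of lysophosphatidic acid (LPA). The 4 genes were taken by symbol from the 32285 features of the deposited matrices, and each symbol belonged to 1 identifier. For this, 6 C57BL/6 S-56 mice were injected at postnatal day 7 (P7) into the right lateral ventricle with 5 µl of either 1 mM LPA in 0.01% bovine serum albumin (BSA) or of the BSA vehicle alone, 3 mice per group, as a model of post-hemorrhagic hydrocephalus. Brains without olfactory bulbs and cerebellum were collected at P15, 1 mouse per library, and nuclei negative for the neuronal protein NeuN were sorted and sequenced with the 10x Genomics 3′ v3 kit. A library thus samples a whole brain, and regions near to and far from the ventricle cannot be told apart by position.

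Intermediate filaments are ropelike polymers that give a cell mechanical strength. Glial fibrillary acidic protein is the main filament protein of mature astrocytes and is widely used as a sign of their reaction to injury. Vimentin and nestin are the filament proteins of radial glia and neural progenitors, vimentin is also made by ependymal, endothelial and meningeal cells, and synemin is a large partner that joins filaments made by the others. When astrocytes become reactive, all of these proteins can be made together.

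The libraries held 63383 barcodes with 48852970 to 65688644 unique molecular identifiers (UMIs, each counting 1 captured RNA molecule) per library, and 57443 nuclei were kept. Clusters made without the 4 genes and without any marker gene were named from marker lists as 6 classes and 16 subtypes, with 17.8% of nuclei left unnamed. Astrocytes comprised 9908 nuclei, and all 10 of their markers were detected in them. Of the subtypes, activated microglia, cells forming cilia and smooth muscle cells had under 10 nuclei in at least 1 library and were not tested. Despite the sort, 13815 nuclei bore neuronal markers. Between 1.25% and 1.42% of the barcodes of a library were also found in another library, and no pair of libraries of a group agreed within sampling noise. Within a class, LPA nuclei had more UMIs, with a median of 3357 against 2805 in astrocytes. Values below are CPM, the UMIs of a gene in a cell type of a library scaled to 1 fixed total of UMIs per cell type and library, and adjusted by TMM factors where a test is given. Fold changes are log2 values from edgeR's quasi-likelihood test, and a gene was called at a Benjamini-Hochberg adjusted p under 0.05 with a change of 0.25 or more in either direction on the log2 scale.

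Gfap (ENSMUSG00000020932) lies on chromosome 11 from 102887336 to 102900912 on the minus strand of GRCm38, and a noncoding gene, Gm26668, overlaps it on the other strand. Vim (ENSMUSG00000026728) lies on chromosome 2 from 13573927 to 13582826 on the plus strand. Nes (ENSMUSG00000004891) lies on chromosome 3 from 87971078 to 87980451, also on the plus strand. Synm (ENSMUSG00000030554) lies on chromosome 7 from 67730160 to 67759742 on the minus strand, where Ttc23 and Gm45102 overlap it on the other strand. The 3′ kit keeps strand, so that reads of these partners can be told apart from those of Gfap and Synm.

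Because the 4 genes went different ways between cell types, the bases just before their RefSeq starts (GRCm38.p6, 5′ to 3′ along the gene) were set side by side. Matches to TTCNNNGAA (the core of STAT sites), to TATAAA (the TATA box), to CCAAT (the CCAAT box) and to GGGCGG (the GC box) on either strand are in capitals:
Gfap, chr11:102897201-102897450, minus strand: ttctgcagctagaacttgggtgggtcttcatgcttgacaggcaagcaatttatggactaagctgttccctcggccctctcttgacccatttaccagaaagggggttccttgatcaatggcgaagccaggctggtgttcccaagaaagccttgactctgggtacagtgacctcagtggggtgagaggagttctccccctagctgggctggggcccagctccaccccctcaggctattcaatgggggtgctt
Nes, chr3:87970843-87971077, plus strand: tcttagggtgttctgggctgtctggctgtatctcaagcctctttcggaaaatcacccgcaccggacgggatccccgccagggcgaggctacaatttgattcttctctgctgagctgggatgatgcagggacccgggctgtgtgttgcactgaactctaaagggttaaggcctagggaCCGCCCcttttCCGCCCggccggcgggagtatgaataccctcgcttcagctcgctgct
Synm, chr7:67759743-67759992, minus strand: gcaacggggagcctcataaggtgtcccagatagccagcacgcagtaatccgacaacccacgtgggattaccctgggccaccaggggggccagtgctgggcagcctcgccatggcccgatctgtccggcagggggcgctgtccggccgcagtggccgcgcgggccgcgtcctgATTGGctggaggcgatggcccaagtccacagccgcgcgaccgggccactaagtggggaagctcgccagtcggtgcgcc
The Gfap window lies within the annotated span of the gene but outside its exons, and holds none of the 4 motifs. The Nes window ends where its first exon begins and holds GGGCGG inverted, as CCGCCC, at 73 and 62 bases before the RefSeq start, which lies 15 bases beyond the end of the printed stretch. The Synm window holds CCAAT inverted, as ATTGG, 78 bases before the start. The window of Vim overlaps an exon and is not printed. It holds TATAAA 32 bases before the start, CCAAT 196 bases before it and ATTGG 94 bases before it. Over all 32851 windows of this length, TTCNNNGAA was present in 7.02%, TATAAA in 12.4%, CCAAT in 33.8% and GGGCGG in 32.7%.

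The level of each gene across cell types came first, as CPM without TMM over the 6 libraries. Gfap was the most restricted. Myoc Thbs4 astrocytes, a subtype named for myocilin and thrombospondin-4, held 977 ± 80.5 CPM (SD, n = 6), with a lowest library of 851 and a highest of 1082. Telencephalic-type astrocytes, named from forebrain genes such as Lhx2, held 83.3 ± 11.7, and Slc6a11 Agt astrocytes, named for a GABA transporter and angiotensinogen, held 43.1 ± 10.4. The ranges of these 3 subtypes did not overlap. Below them no neighbors in the order could be separated by their spread over libraries, from multiciliated ependymal cells at 28.4 ± 19.8 and macrophages at 28.1 ± 11.4 down to choroid plexus epithelium at 6.25 ± 3.97.

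The other 3 genes were highest outside the astrocytes. Among subtypes with at least 10 nuclei in every library, Vim was highest in endothelial cells at 118 ± 27.8 CPM, followed by multiciliated ependymal cells at 72.0 ± 18.6 and Myoc Thbs4 astrocytes at 46.7 ± 10.6. These neighbors overlapped in range. Nes was highest in endothelial cells, at 123 ± 21.0 CPM. Pericytes, the contractile cells of capillaries, held 55.5 ± 14.6 and multiciliated ependymal cells 20.4 ± 4.56, and the ranges of these 3 did not overlap. The 3 astrocyte subtypes held 1.3 to 2.5 CPM of Nes, that is 68 UMIs in 9908 astrocyte nuclei. Synm was highest in endothelial cells at 139 ± 25.2 CPM and in multiciliated ependymal cells at 79.1 ± 18.1. The latter lay clear of choroid plexus epithelium at 22.1 ± 5.11, and astrocyte subtypes held 3.4 to 5.6 CPM. Smooth muscle cells came from as few as 3 nuclei per library and are left out of this order.

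**Figure D1:**
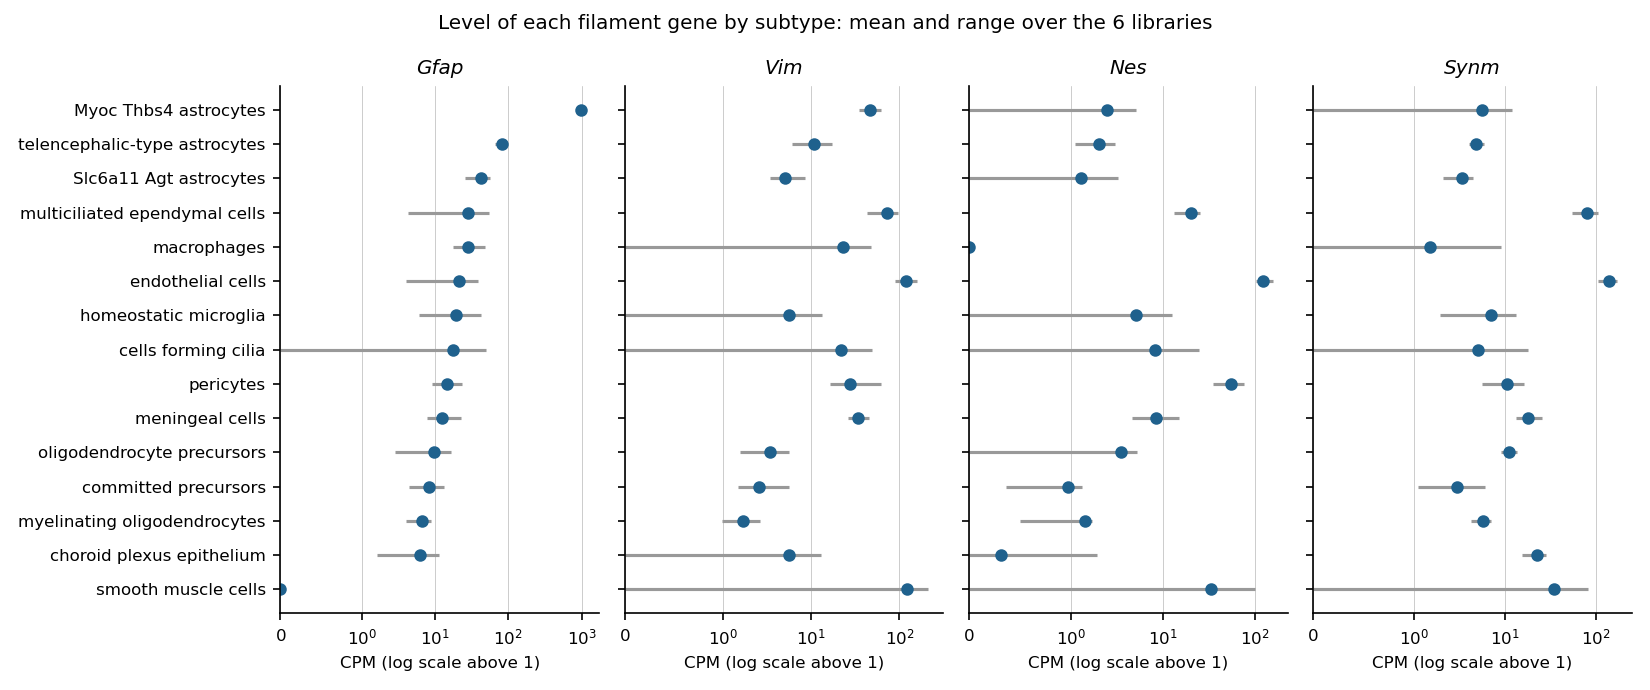
Level of each gene by subtype, in CPM on an axis that is logarithmic above 1, for the subtypes with nuclei in all 6 libraries. Points are means over the 6 libraries and lines run from the lowest to the highest library. Gfap peaks in Myoc Thbs4 astrocytes at 977 CPM, whereas the astrocyte subtypes lie low in Nes and Synm.

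Across the 16 subtypes the profiles of Vim, Nes and Synm were alike (Pearson r of 0.64 to 0.75 on log2(CPM + 1) of the mean over libraries), and that of Gfap was like none of them (r of -0.26 to 0.08). These are descriptions over subtypes that share libraries, and some subtypes have few nuclei. Of 17428 other genes with at least 200 UMIs, Lratd1 (r = 0.94), Fbxo2 (0.89) and the immediate-early gene Fos (0.88) had the profiles most like Gfap. Dusp1, 2900026A02Rik and S100a11 were most like Vim (r of 0.88 to 0.90). Mapk12, Bok and Filip1 were most like Nes (0.86 to 0.89), and Tgm2, Kank4 and Lmo7 most like Synm (0.83 to 0.93).

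LPA was then compared with vehicle, first in astrocytes as a class. Gfap stood at 274, 244 and 306 CPM in LPA 1 to 3 and at 120, 105 and 99.7 in vehicle 1 to 3. Every LPA library was above every vehicle library. The rise was 1.35 (SE 0.087, adjusted p = 5.1e-08 by edgeR), in a class where 7.13% of 14386 genes tested were called, and it was called without each library in turn (1.26 to 1.43). Vim stood at 20.3, 15.9 and 17.9 CPM after LPA and at 14.3, 10.7 and 10.8 after vehicle. It rose by 0.62 (SE 0.16, adjusted p = 0.020 by edgeR), from 164 UMIs in vehicle and 320 in LPA astrocytes. Its call was lost without LPA 1, LPA 3, vehicle 2 or vehicle 3 (0.53 to 0.62) and with DESeq2 (0.61, adjusted p = 0.066).

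Synm and Nes were higher in every LPA library without passing the test. Synm, the filament partner, stood at 6.18, 5.58 and 6.29 CPM after LPA and at 3.51, 3.18 and 4.23 after vehicle (0.73, SE 0.24, adjusted p = 0.074 by edgeR). Nes stood at 2.75, 2.50 and 2.48 CPM after LPA and at 2.34, 1.17 and 1.48 after vehicle, from 46 and 22 UMIs (0.71, SE 0.35, adjusted p = 0.27 by edgeR). It passed the filter on low counts through the LPA libraries, where it was higher.

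**Figure D2:**
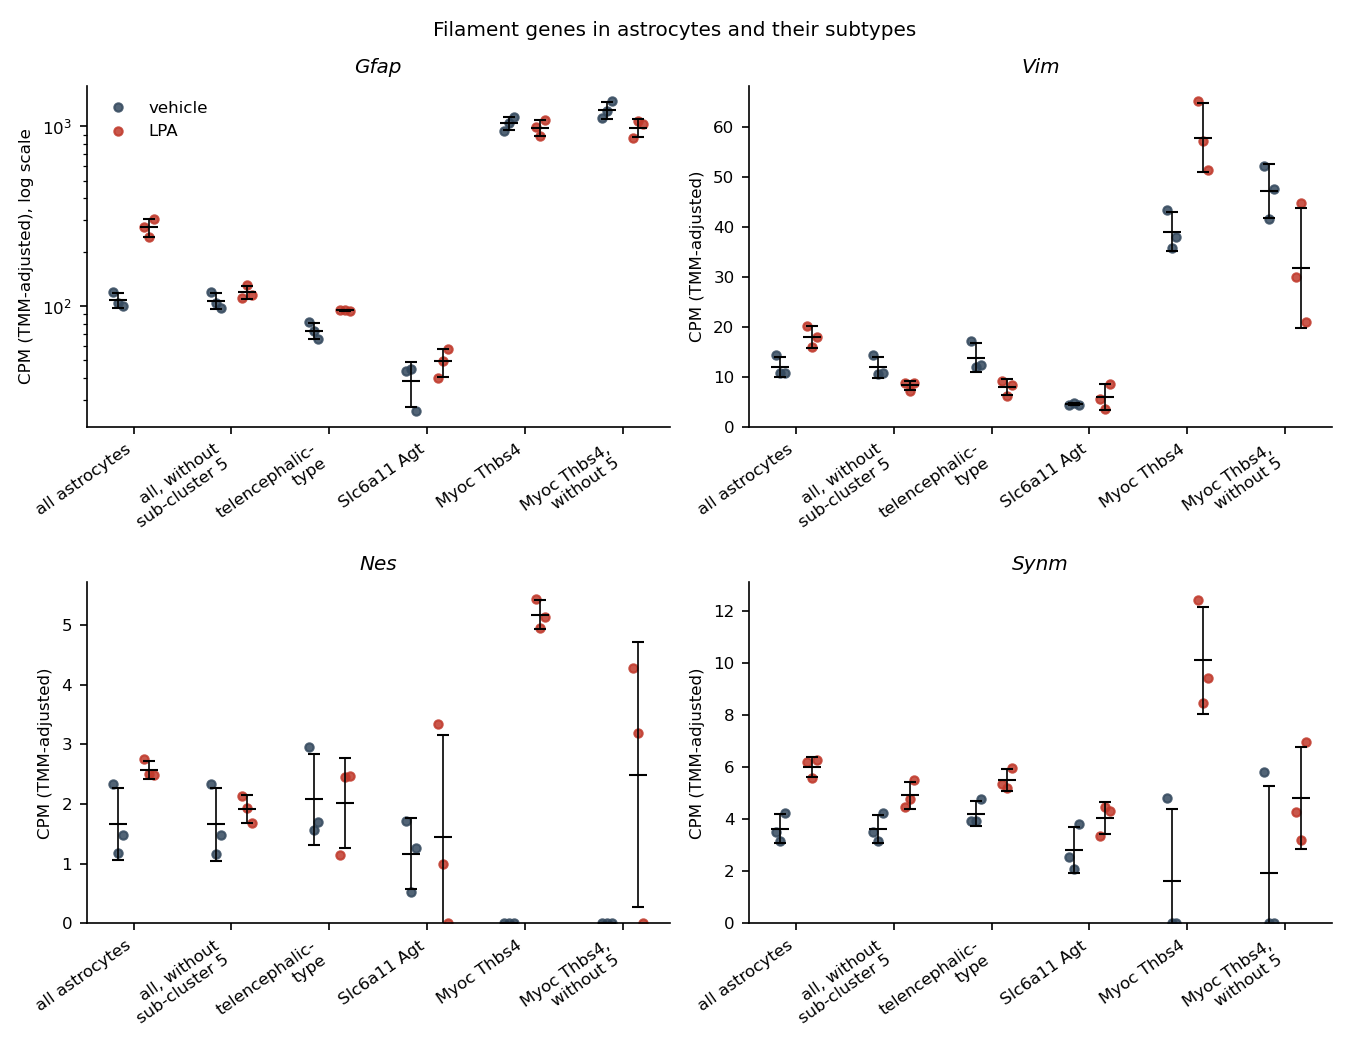
TMM-adjusted CPM of the 4 genes in astrocytes and their subtypes, with and without sub-cluster 5, 1 point per library and the mean with SD in black (Gfap on a log axis). Over all astrocytes the LPA libraries lie above the vehicle libraries for each gene, while Gfap in Myoc Thbs4 astrocytes overlaps between groups.

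The share of astrocyte nuclei with a Gfap UMI moved with the level. Nuclei were thinned to 1500 UMIs, leaving out 99 LPA and 190 vehicle astrocyte nuclei with fewer. After LPA 21.7%, 20.7% and 23.9% of nuclei had a Gfap UMI, against 11.8%, 11.4% and 9.06% after vehicle. The groups did not overlap (exact permutation test, two-sided p = 0.1, the smallest that 20 assignments allow). Without thinning the means were 32.5% ± 2.99 and 17.2% ± 2.94 (SD, n = 3). In neurons, which do not make Gfap, thinned shares were 1.43% to 1.91% after LPA and 0.476% to 0.791% after vehicle, with median depths of 6184 and 5131 UMIs. The astrocyte shares lay well above these. Nuclei with both a Gfap and a Vim UMI comprised 1.32% ± 0.276 of astrocyte nuclei after LPA and 0.481% ± 0.0539 after vehicle, that is 65 and 22 nuclei. No neuron had both. For Vim alone the thinned shares were 2.41% to 2.56% after LPA and 1.61% to 2.01% after vehicle, against 0.280% to 0.640% in neurons of both groups. Nes and Synm UMIs were found in at most 1.12% of the astrocyte nuclei of any library.

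Within the astrocyte subtypes the rise of Gfap was far smaller. Myoc Thbs4 astrocytes stood at 987, 882 and 1088 CPM after LPA and at 945, 1050 and 1123 after vehicle. The groups overlapped, and the difference was -0.08 (SE 0.12, adjusted p = 0.81 by edgeR), with 7.90% of genes called in this subtype. The share of its nuclei with a Gfap UMI also overlapped, at 57.8% to 71.7% and 59.0% to 63.4%. This value depended on which nuclei took the name. At Leiden resolution 2 it was 0.45 and called, with mixed clusters included it was 1.55 and called, and without the mitochondrial filter it was 0.35 and not called.

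Telencephalic-type astrocytes stood at 95.6, 94.8 and 94.3 CPM of Gfap after LPA and at 81.3, 72.2 and 65.7 after vehicle. The groups did not overlap, and Gfap rose by 0.39 (SE 0.097, adjusted p = 0.028 by edgeR), where 2.72% of genes were called. The LPA mean was above the vehicle mean in each of the 6 sub-clusters of this subtype. These come from the same 6 libraries and are not replicates, and the groups overlapped in sub-clusters 7, 8 and 11. The call was lost without LPA 1, LPA 2, LPA 3, vehicle 2 or vehicle 3, with values of 0.32 to 0.39. In Slc6a11 Agt astrocytes Gfap stood at 40.1, 49.8 and 57.8 CPM after LPA and at 43.6, 44.9 and 26.0 after vehicle. These overlapped (0.34, SE 0.18, adjusted p = 0.53 by edgeR, 0.444% of genes called).

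The share of astrocytes that were of the Gfap-rich subtype was higher after LPA. Myoc Thbs4 astrocytes made up 22.3%, 21.9% and 22.7% of astrocyte nuclei after LPA and 7.43%, 5.39% and 5.37% after vehicle. They held 78.1% ± 2.44 of the Gfap UMIs of astrocytes after LPA and 46.7% ± 4.14 after vehicle. These shares rest on clusters made from genes that themselves differ between the groups, so they are given as a description. With each library given the mean subtype mix of the vehicle libraries, Gfap in astrocytes was 119 ± 5.26 CPM after LPA and 108 ± 5.02 after vehicle, a ratio of 1.11 in place of 2.50 as measured (exact permutation test, two-sided p = 0.1, the smallest possible). With the mix of the LPA libraries it was 271 ± 19.9 and 276 ± 7.92 (exact permutation p = 0.7). Vim at the vehicle mix was 9.38 ± 1.55 CPM after LPA and 11.98 ± 2.02 after vehicle, lower in every LPA library, whereas as measured it was higher (exact permutation p = 0.1, the smallest possible). At the LPA mix it was 17.9 ± 1.79 and 16.8 ± 2.51 (exact permutation p = 0.5). Only the shares of the subtypes were fixed, not the nuclei within them. Most Myoc Thbs4 nuclei after LPA came from a sub-cluster that vehicle libraries hardly held (17.3% and 0.173% of astrocyte nuclei on average). Levels at a fixed mix thus compare largely different nuclei under that name.

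Most of the Gfap-rich nuclei after LPA came from 1 sub-cluster, number 5 of the astrocytes. It held 887 nuclei, 99.1% of them from LPA libraries, and made up 17.4%, 15.5% and 19.0% of astrocyte nuclei after LPA but 0.186%, 0.0518% and 0.282% after vehicle. It held 64.1% ± 7.87 of the Gfap UMIs of LPA astrocytes, 62.6% ± 2.37 of those of Vim, 39.7% ± 5.74 of those of Nes and 33.6% ± 6.99 of those of Synm. Its Gfap level was 955 ± 115 CPM, near that of the 2 other sub-clusters of this subtype, which stood at 779 ± 142 and 891 ± 333 in the same libraries. Its leading genes were C530044C16Rik, Ggta1, Aspg, Gfap, A2m, C4b, Ccn1, Sulf1, Cd44 and Prune2. The label fits it only in part. It carried Thbs4 (179 CPM) but less Myoc (41.3 CPM). The 2 other sub-clusters carried Myoc (614 and 784 CPM) and little Thbs4 (29.96 and 16.85 CPM). Telencephalic-type astrocytes held 26.4 CPM of Thbs4 and 4.77 of Myoc. Of the other naming markers, Id3, Igfbp5 and Slc38a1 were above their level in telencephalic-type astrocytes in each of these sub-clusters. Crym went against the name, at 8.20 CPM in sub-cluster 5 and 11.5 and 10.1 in the others, against 49.4 in telencephalic-type astrocytes. Summed over all 10 astrocyte markers, sub-cluster 5 held 18332 to 19312 CPM in LPA libraries, against 25343 to 26611 in LPA astrocytes as a class. Summed markers of neurons, in which all 13 were detected, were 3108 to 3193 CPM in it and 2127 to 2354 in LPA astrocytes as a class. Myoc Thbs4 astrocytes of vehicle libraries, which held few of its nuclei, differed from their class in the same directions. Their sums were 18558 to 18936 CPM for astrocyte markers and 2693 to 2965 for neuronal ones. In vehicle astrocytes as a class these were 27298 to 28235 and 1832.5 to 2021.9. The part of other cells' RNA in the levels of sub-cluster 5 was not tested.

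**Figure D3:**
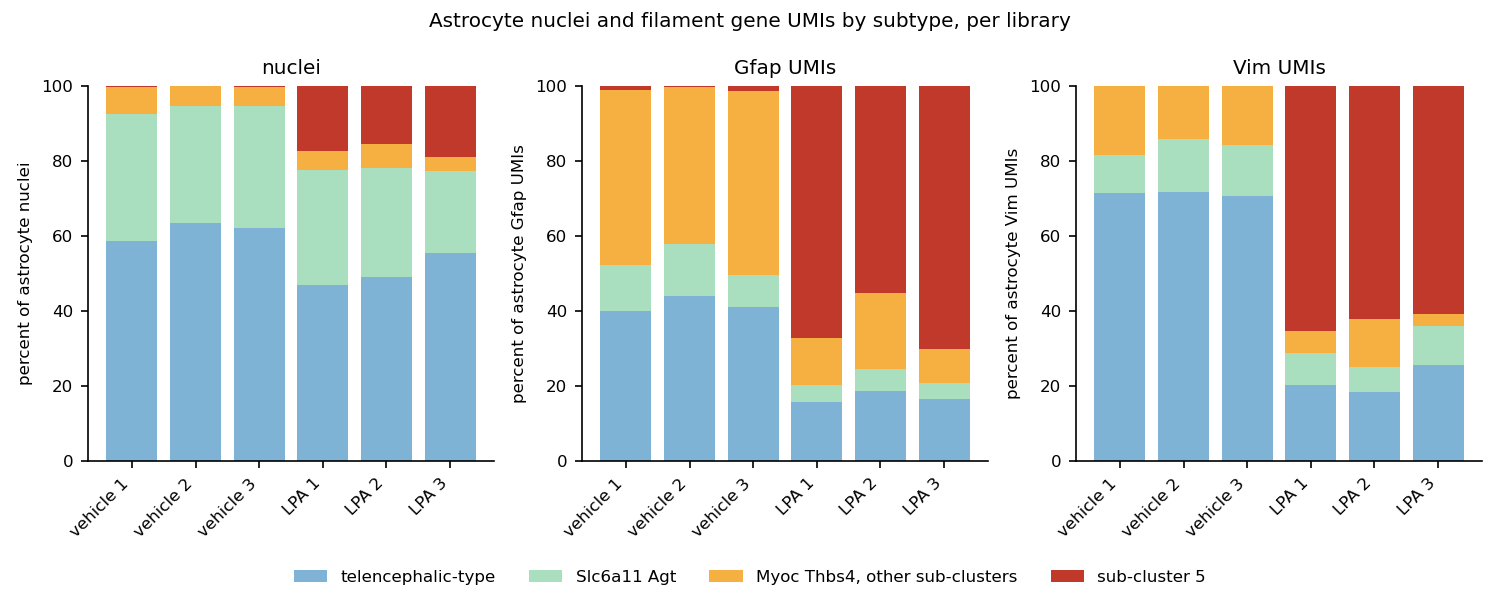
Percent of astrocyte nuclei, of Gfap UMIs in astrocytes and of Vim UMIs in astrocytes that fall in each subtype, stacked for each of the 6 libraries, with sub-cluster 5 drawn apart from the other Myoc Thbs4 astrocytes. Sub-cluster 5 takes 15.5% to 19.0% of the nuclei but 64.1% of the Gfap UMIs and 62.6% of the Vim UMIs of LPA astrocytes on average.

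The comparison was repeated without this sub-cluster, a choice made after seeing the data. Gfap in astrocytes was then 112, 131 and 115 CPM after LPA and 119, 104 and 98.2 after vehicle. The groups overlapped, and the difference of 0.17 (SE 0.085, adjusted p = 0.38 by edgeR) was not called, with 1.95% of genes called. Vim changed direction, with 8.72, 7.23 and 8.85 CPM after LPA and 14.3, 10.6 and 10.8 after vehicle (-0.51, SE 0.19, adjusted p = 0.20 by edgeR). Synm stood at 4.47 to 5.50 CPM after LPA and 3.15 to 4.23 after vehicle (0.44, adjusted p = 0.47 by edgeR). Gfap in the remaining Myoc Thbs4 astrocytes was 863, 1067 and 1025 CPM after LPA and 1115, 1214 and 1376 after vehicle. All 3 LPA libraries were lower, but the difference was not called (-0.33, SE 0.15, adjusted p = 0.69 by edgeR, 0.168% of genes called).

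Vim passed the test in none of the astrocyte subtypes in which it was tested. In telencephalic-type astrocytes it stood at 9.17, 6.12 and 8.44 CPM after LPA and at 17.25, 12.04 and 12.26 after vehicle. Every LPA library was below every vehicle library, and the difference of -0.78 (SE 0.24) missed the threshold (adjusted p = 0.083 by edgeR). In Myoc Thbs4 astrocytes it stood at 65.1, 57.2 and 51.4 CPM after LPA and at 43.4, 35.8 and 37.9 after vehicle, the latter from 26 UMIs (0.58, SE 0.28, adjusted p = 0.26 by edgeR). Of the 225 Vim UMIs of LPA libraries in this subtype, 201 came from the LPA-dominated sub-cluster, and in its other nuclei Vim stood at 29.9, 44.7 and 20.9 CPM after LPA and at 52.3, 41.5 and 47.7 after vehicle, which was not tested after the filter on low counts. With that sub-cluster in, the LPA effects in these 2 subtypes differed by 1.40 (SE 0.37, adjusted p = 0.010 for the interaction by edgeR, with 4.31% of genes called), a call that was lost without LPA 2, vehicle 1 or vehicle 2 (1.27 to 1.45). Without the LPA-dominated sub-cluster the difference was 0.40 (SE 0.54, adjusted p = 1.0 by edgeR, 0.0524% of genes called). In Slc6a11 Agt astrocytes Vim was at 3.48 to 8.63 CPM after LPA and 4.27 to 4.70 after vehicle and was not tested after the filter on low counts.

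For Gfap the LPA effect was lower in Myoc Thbs4 astrocytes than in telencephalic-type astrocytes, by 0.45 (-0.45, SE 0.12, adjusted p = 0.012 for the interaction by edgeR). The call was lost without LPA 2, vehicle 2 or vehicle 3, at -0.34, -0.43 and -0.32. The difference was not tested at Leiden resolution 2 or with mixed clusters included. In those settings Gfap in Myoc Thbs4 astrocytes rose by 0.45 and 1.55. Without the LPA-dominated sub-cluster the difference was -0.68 (SE 0.16, adjusted p = 0.029 by edgeR). It was not called without LPA 1, LPA 3, vehicle 2 or vehicle 3, at -0.59, -0.70, -0.68 and -0.53. The effects on Gfap in Slc6a11 Agt and telencephalic-type astrocytes differed by -0.05 (adjusted p = 0.99 by edgeR, 0.136% of genes called). Those in Myoc Thbs4 and Slc6a11 Agt astrocytes differed by -0.44 (adjusted p = 0.20 by edgeR, 4.30% of genes called).

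Nes and Synm were too sparse for most subtypes. In Myoc Thbs4 astrocytes Nes had 20 UMIs in LPA and 0 in vehicle libraries, at least 1.12-fold higher over the group against a floor of 3 counts, and 18 of the 20 came from the LPA-dominated sub-cluster. In telencephalic-type astrocytes Nes stood at 1.15 to 2.46 CPM after LPA and 1.57 to 2.96 after vehicle. Synm there was 5.35, 5.20 and 5.98 CPM after LPA and 3.94, 3.93 and 4.77 after vehicle, groups that did not overlap but did not pass the test (0.38, SE 0.31, adjusted p = 0.63 by edgeR). In Myoc Thbs4 astrocytes Synm had 39 UMIs after LPA and 1 after vehicle, out of 4069617 and 685162 UMIs of all genes. Scaled for this depth it stood at 10.1 ± 2.05 and 1.61 ± 2.78 CPM. Of the 39 UMIs, 36 came from the LPA-dominated sub-cluster.

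Genes that work with these proteins were counted in astrocytes as a class, from lists chosen by function, beside the 7.13% of all genes tested that were called there. Of 18 other intermediate filament proteins 8 were tested, and neither the neurofilament genes Nefl and Nefm, nor the lamin genes Lmna, Lmnb1 and Lmnb2, nor any other was called (median log2 fold change -0.23, against -0.0072 over all genes). Without LPA 1, 1 of them was called. Of 11 filament linkers, chaperones and modifiers tested, 2 rose and 0 fell (median 0.06). These were Dst (0.42, SE 0.067, adjusted p = 0.00068 by edgeR), a linker of filaments to other parts of the cytoskeleton, and the dystrophin relative Utrn (0.29, SE 0.067, adjusted p = 0.011 by edgeR). All 18 known regulators of Gfap transcription were tested, and 3 rose and 1 fell (median 0.07). Socs3, a feedback inhibitor that STAT3 switches on, rose by 2.69 (SE 0.47) from 0.559 ± 0.125 to 3.88 ± 1.63 CPM. Its vehicle level was near the floor, and it passed the filter on low counts through the LPA libraries. Stat3 itself rose by 0.48 (SE 0.072) and the cytokine receptor subunit Il6st by 0.33 (SE 0.083), whereas Cntfr, the receptor for ciliary neurotrophic factor, fell by 0.33 (SE 0.072). Without LPA 1, 7 of these regulators were called.

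Of 6 pan-reactive astrocyte genes tested in astrocytes, where 7.13% of all genes were called, 5 rose and 0 fell, with a median log2 fold change of 1.46. The largest rises were those of Aspg (2.75, SE 0.15), the hyaluronan receptor Cd44 (1.89, SE 0.14), the oncostatin M receptor Osmr (1.59, SE 0.13) and the sphingosine 1-phosphate receptor S1pr3 (1.34, SE 0.22). Aspg and Cd44 were also among the genes leading the LPA-dominated sub-cluster. In telencephalic-type astrocytes, which hold none of that sub-cluster, 2 of 5 tested were called against 2.72% of all genes, Aspg (1.83, SE 0.35) and Osmr (0.78, SE 0.16). Of 11 neural progenitor genes tested in astrocytes, the list to which Vim and Nes belong by function, 0 rose and 1 fell, the Notch target Hes5 (-0.49, SE 0.096, adjusted p = 0.0035 by edgeR), a share close to the 7.13% of all genes called.

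Ependymal cells line the ventricles, where LPA was injected, and multiciliated ependymal cells express Vim, Nes and Synm. As a class, ependymal cells held 21.0, 24.8 and 32.4 CPM of Gfap after LPA and 11.96, 7.668 and 8.201 after vehicle. Each LPA library was higher (1.41, SE 0.33, adjusted p = 0.015 by edgeR, 2.96% of genes called), from 94 and 23 UMIs. The call was lost without LPA 3, vehicle 2 or vehicle 3, at 1.23, 1.32 and 1.31. In multiciliated ependymal cells Gfap stood at 27.2, 51.5 and 59.3 CPM after LPA and at 19.6, 4.69 and 19.4 after vehicle. It rose by 1.46 (SE 0.41, adjusted p = 0.049 by edgeR, 1.71% of genes called), from 73 and 16 UMIs, and the call was lost without LPA 2, LPA 3, vehicle 1, vehicle 2 or vehicle 3 (1.20 to 1.81). Both in the class and in this subtype, Gfap passed the filter on low counts through the LPA libraries, where it was higher. These tests are therefore not free of that selection. Markers of astrocytes summed to 1659 to 2007 CPM in these nuclei after LPA and to 1596 to 1758 after vehicle, with all 10 detected. Their part in the Gfap level was not tested. Without the 114 nuclei of a sub-cluster that was 96.5% from LPA libraries, Gfap stood at 20.93, 44.99 and 63.10 CPM after LPA and at 20.5, 5.04 and 19.9 after vehicle. All 3 LPA libraries were still higher, though LPA 1 only barely, and Gfap did not pass the filter on low counts there, where 0.821% of genes tested were called.

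Vim, Nes and Synm did not pass the test in ependymal cells. In multiciliated ependymal cells Synm stood at 59.2, 77.2 and 71.5 CPM after LPA and at 86.3, 113 and 101 after vehicle. Every LPA library was lower (-0.50, SE 0.23, adjusted p = 0.37 by edgeR). Without the LPA-dominated sub-cluster of these cells the difference was -0.36 (SE 0.24, adjusted p = 0.71 by edgeR). Vim stood at 65.6, 72.5 and 103 CPM after LPA and at 84.3, 46.9 and 89.1 after vehicle, and Nes at 14.4, 21.1 and 26.2 after LPA and at 23.5, 18.8 and 27.1 after vehicle. Both overlapped between groups, with differences of 0.07 (SE 0.24) and -0.20 (SE 0.42). In ependymal cells as a class Synm stood at 41.2, 37.6 and 41.1 CPM after LPA and at 54.3, 59.4 and 53.3 after vehicle (-0.47, SE 0.19, adjusted p = 0.22 by edgeR). The LPA effect on Synm was lower in ependymal cells than in astrocytes, a difference of -1.21 (SE 0.32, adjusted p = 0.026 for the interaction by edgeR, 2.26% of genes called), while neither effect was called on its own. The effects on Gfap in these 2 classes differed by 0.09 (SE 0.32, adjusted p = 0.96). Choroid plexus epithelium held 19.3 ± 2.95 CPM of Synm after LPA and 27.8 ± 2.84 after vehicle (-0.55, SE 0.37, adjusted p = 0.92 by edgeR, 0.101% of genes called). There Synm passed the filter on low counts through the vehicle libraries, where it was higher.

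**Figure D4:**
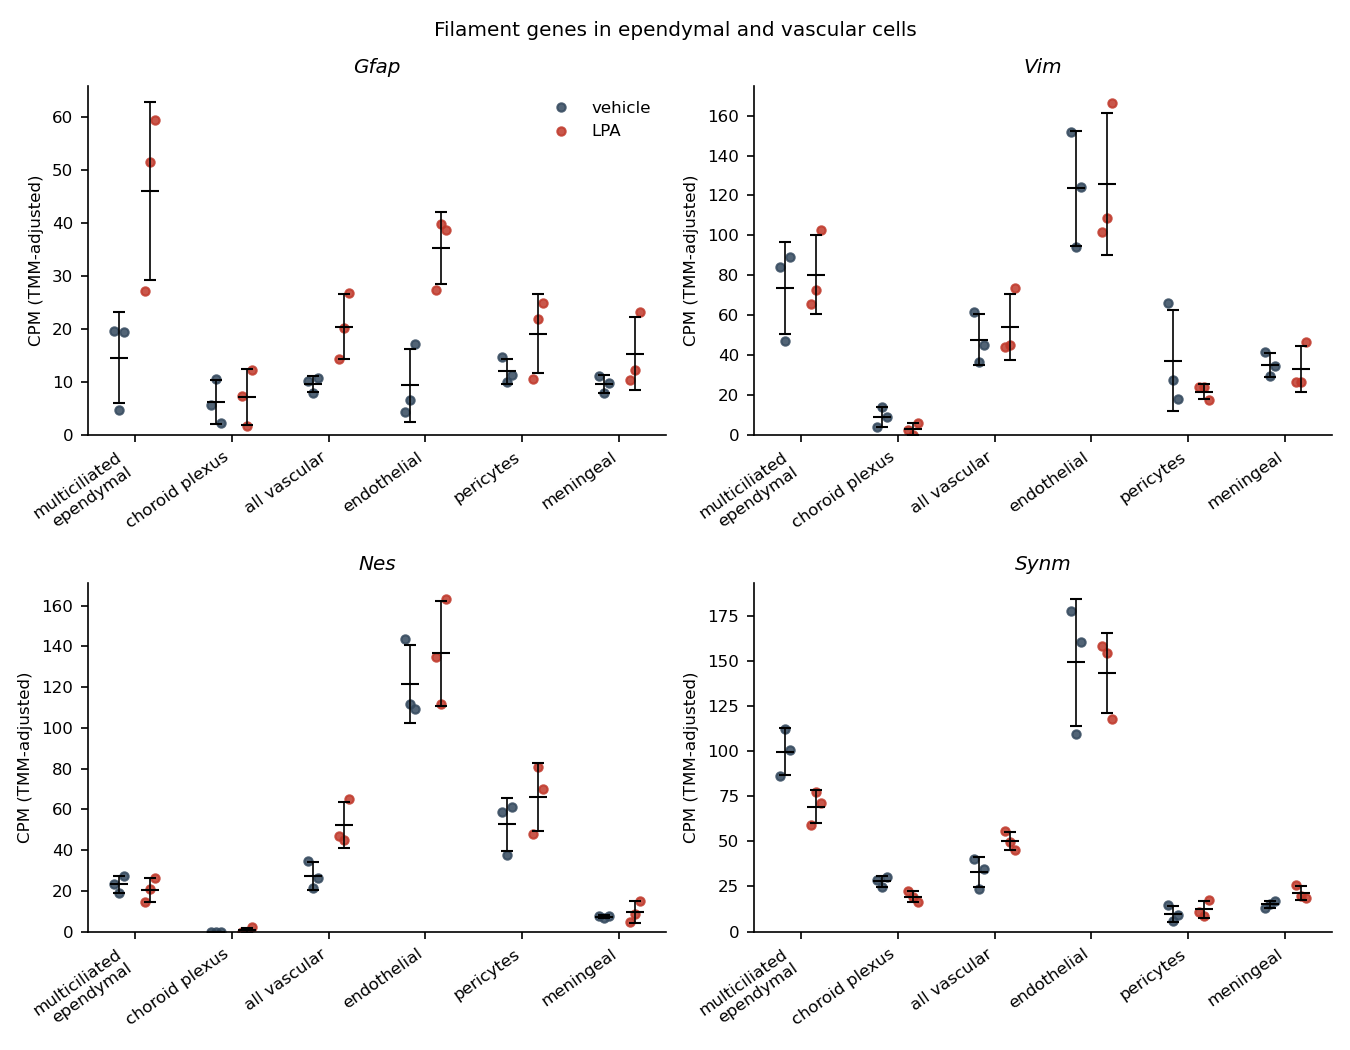
TMM-adjusted CPM of the 4 genes in multiciliated ependymal cells, choroid plexus epithelium, vascular cells and 3 vascular subtypes, 1 point per library and the mean with SD in black. Synm is lower in all 3 LPA libraries of multiciliated ependymal cells, and Nes is higher in all 3 LPA libraries of vascular cells but overlaps between groups in endothelial cells.

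In vascular cells, too, the class and its subtypes gave different values. As a class, they held Nes at 46.7, 44.9 and 65.3 CPM after LPA and at 34.6, 21.2 and 26.3 after vehicle. It rose by 0.96 (SE 0.18, adjusted p = 0.0033 by edgeR, 8.39% of genes called), and was called without each library in turn (0.77 to 1.13). Synm stood at 55.6, 49.8 and 45.3 CPM after LPA and at 40.2, 23.7 and 34.6 after vehicle. It rose by 0.64 (SE 0.17, adjusted p = 0.026 by edgeR), and lost its call without LPA 1, LPA 2, vehicle 2 or vehicle 3 (0.43 to 0.68). Without the mitochondrial filter neither was called, at 0.44 for Nes and 0.15 for Synm.

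Nes and Synm were called in none of the vascular subtypes in which they were tested. Endothelial cells held 135, 112 and 163 CPM of Nes after LPA and 143, 112 and 109 after vehicle (0.17, SE 0.17, adjusted p = 0.89 by edgeR, 0.0948% of genes called). In pericytes Nes stood at 47.8, 80.6 and 69.8 CPM after LPA and at 58.6, 37.7 and 61.3 after vehicle (0.38, SE 0.27, adjusted p = 0.79 by edgeR, 0.243% of genes called). Both overlapped between groups. Meningeal cells, the fibroblasts of the brain's coverings, held 9.52 ± 5.28 CPM of Nes after LPA and 7.33 ± 0.573 after vehicle (0.38, SE 0.35, adjusted p = 0.80 by edgeR, 1.06% of genes called). Synm in endothelial cells stood at 118 to 158 CPM after LPA and at 110 to 178 after vehicle (-0.06, SE 0.17, adjusted p = 0.97 by edgeR). In meningeal cells Synm stood at 25.5, 19.8 and 18.7 CPM after LPA and at 13.1, 15.2 and 17.0 after vehicle, with every LPA library higher (0.46, SE 0.22, adjusted p = 0.48 by edgeR). Endothelial cells, with the highest Nes and Synm, made up 27.1% ± 1.44 of vascular nuclei after LPA and 14.5% ± 2.87 after vehicle, whereas meningeal cells, with less of both, made up 48.7% ± 3.61 and 69.9% ± 1.82. Fewer cells of a type and fewer of its nuclei recovered cannot be told apart. Vim did not pass the test in vascular cells (0.20, SE 0.20, adjusted p = 0.65 by edgeR), nor in endothelial cells (0.03), pericytes (-0.61) or meningeal cells (-0.08).

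Gfap was also called in cell types other than astrocytes. Over 16 classes and subtypes in which it was tested, Gfap rose in 9, whereas Vim rose in 1 of 12, Nes in 1 of 9 and Synm in 1 of 12. A class includes the nuclei of its subtypes, so these are not counts of separate cell types. The share of all genes called also differed widely, from 0.0659% in neurons to 12% in oligodendrocytes. In ependymal cells, multiciliated ependymal cells and precursors, Gfap passed the filter on low counts through the LPA libraries. The counts of the 4 genes are therefore not like for like. In neurons Gfap stood at 8.81, 8.85 and 9.65 CPM after LPA and at 4.85, 4.20 and 4.10 after vehicle (1.06, SE 0.14, adjusted p = 0.032 by edgeR), where only 0.0659% of genes were called. That call was lost without LPA 1, LPA 2, LPA 3, vehicle 2 or vehicle 3, at 1.02 to 1.09, and with sex as a covariate (1.06, adjusted p = 0.11 by edgeR). In oligodendrocytes it stood at 9.52, 11.6 and 10.6 CPM after LPA and at 4.81, 5.12 and 4.78 after vehicle (1.11, SE 0.15, adjusted p = 0.00011 by edgeR, 12% of genes called). Oligodendrocyte precursors rose by 1.75 (SE 0.33, adjusted p = 0.011 by edgeR, 0.156% of genes called) and myelinating oligodendrocytes by 0.95 (SE 0.19, adjusted p = 0.029 by edgeR, 0.730% of genes called). In precursors Gfap had 114 UMIs in all and passed the filter on low counts through the LPA libraries. Vascular cells as a class rose by 1.11 (SE 0.23, adjusted p = 0.0065 by edgeR). The calls in precursors were lost without LPA 2 or vehicle 3 (1.71 and 1.70), with DESeq2 (1.79, adjusted p = 0.33) and without the mitochondrial filter (1.54), in myelinating oligodendrocytes without LPA 2, LPA 3, vehicle 2 or vehicle 3 (0.86 to 0.96) and with sex as a covariate (0.96, adjusted p = 0.054), and in vascular cells without LPA 3 (0.89).

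Not called were immune cells at 1.32 (SE 0.41, adjusted p = 0.052 by edgeR, 5.79% of genes called), homeostatic microglia at 1.92 (SE 0.54, adjusted p = 0.054, 1.42% of genes called), endothelial cells at 1.86 (SE 0.42, adjusted p = 0.081), committed precursors at 0.86 (SE 0.28, adjusted p = 0.11, 3.27% of genes called) and meningeal cells at 0.67 (SE 0.30, adjusted p = 0.43). All of these values were positive. In immune cells, endothelial cells and homeostatic microglia (6 vehicle UMIs), Gfap passed the filter on low counts through the LPA libraries. Several of the uncalled cell types gained a call under another setting. Endothelial cells were called without vehicle 3 (2.67), without the filter on low counts (1.87), without the mitochondrial filter (1.46) and at resolution 2 (1.89). Homeostatic microglia were called without the mitochondrial filter (1.93), without doublet calls (1.94) and with mixed clusters (1.29), immune cells without the filter on low counts (1.39) and meningeal cells without the mitochondrial filter (1.57).

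These levels were set against astrocytes of the same library. Gfap in neurons was 3.23%, 3.64% and 3.18% of its level in astrocytes after LPA and 4.04%, 4.01% and 4.08% after vehicle. The percentage was lower after LPA although the level was higher. For the 10 astrocyte markers, the same percentage in neurons had a median of 2.93% after LPA and 2.91% after vehicle (range 2.22% to 10.9% over markers and groups). In myelinating oligodendrocytes Gfap was 3.23% ± 0.416 of its astrocyte level after LPA and 4.23% ± 0.198 after vehicle, and the markers had medians of 2.13% and 2.22%. In multiciliated ependymal cells it was 15.96% ± 5.83 and 12.5% ± 7.40, with marker medians of 9.38% and 8.84%. In homeostatic microglia it was 11.6% ± 2.73 after LPA and 7.09% ± 1.84 after vehicle, groups that did not overlap, with marker medians of 7.03% and 6.40%. Over markers and groups, the percentage ranged from 1.15% to 5.62% in myelinating oligodendrocytes and from 2.06% to 57.2% in multiciliated ependymal cells. In homeostatic microglia it ranged from 2.30% to 16.1%. The Gfap means of both groups lay within these ranges. The microglial values rest on 50 Gfap UMIs after LPA and 6 after vehicle. The part of RNA from astrocytes in these levels was not tested. Vim, Nes and Synm behaved otherwise, with vascular cells as a class holding over 100% of the astrocyte level of each in both groups (305% to 2050% after LPA and 393% to 1673% after vehicle).

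**Figure D5:**
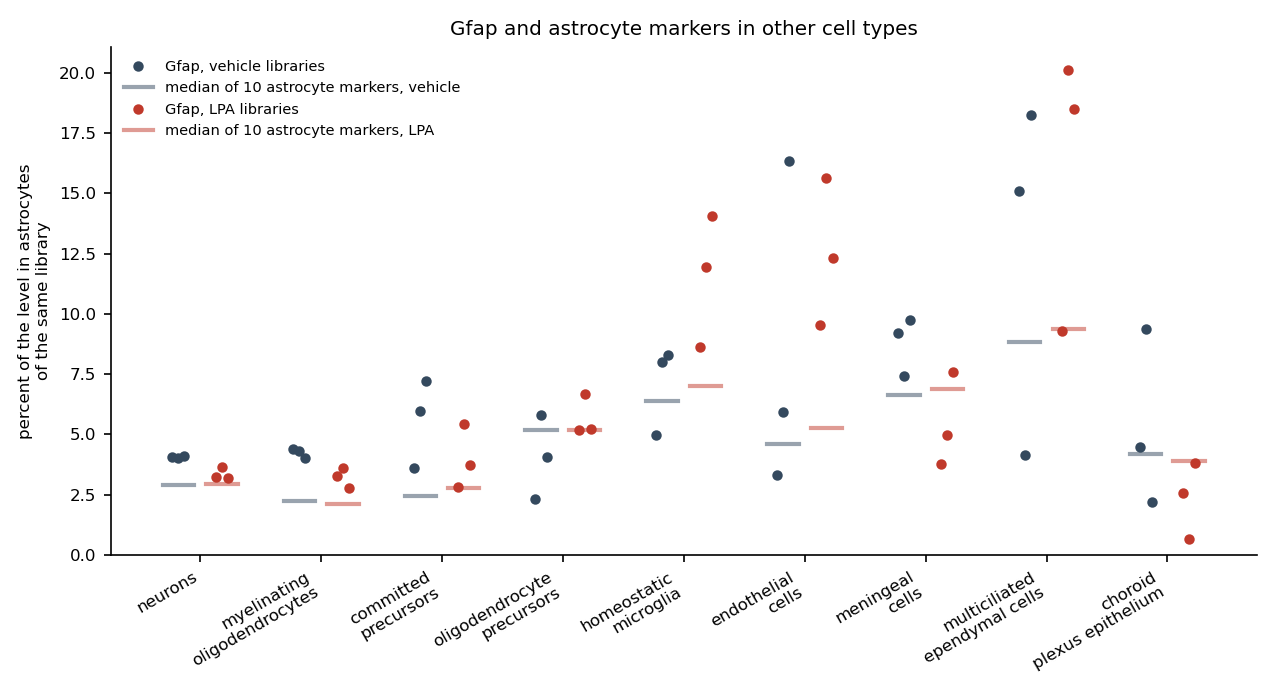
Gfap in 9 other cell types as a percent of its level in astrocytes of the same library, 1 point per library, with bars at the median of 10 astrocyte markers in each group. In neurons Gfap lies at 3.18% to 3.64% after LPA and 4.01% to 4.08% after vehicle, and the marker medians at 2.93% and 2.91%. Single markers, not drawn, range there from 2.22% to 10.9%.

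Tests of the difference between astrocytes and the other classes gave no call for Gfap. The LPA effect differed from that in astrocytes by -0.32 (SE 0.13, adjusted p = 0.32 by edgeR) in neurons, where 2.23% of genes were called, and by -0.24 (SE 0.16, adjusted p = 0.48) in oligodendrocytes, where 7.12% were. The values were 0.02 (SE 0.40, adjusted p = 0.99) for immune cells, with 3.36% of genes called, and -0.25 (SE 0.21, adjusted p = 0.62) for vascular cells, with 6.42%. For Synm the effect in neurons was lower than in astrocytes by 1.13 (-1.13, SE 0.27, adjusted p = 0.029 by edgeR), with neuronal levels of 4.71, 4.79 and 4.79 CPM after LPA and 6.89, 5.31 and 6.70 after vehicle. The neuronal groups did not overlap, and the difference in neurons alone was not called (-0.40, SE 0.16, adjusted p = 0.68 by edgeR).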

How the data were processed

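Per the labels, nuclear RNA of NeuN-negative nuclei was counted with Cell Ranger 4.0.0 on mm10, with a pre-mRNA reference. The authors deposited filtered matrices of raw UMI counts without normalization. Depth is 48852970 to 65688644 UMIs per library and limits the precision of Nes and Synm most. Left out were nuclei with fewer than 300 genes, with over 1% mitochondrial UMIs, or with UMIs more than 1.5 interquartile ranges above the upper quartile of their library.

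Clusters came from scanpy 1.11.5 (3000 variable genes, 40 principal components, 30 neighbors, leidenalg 0.10.2 at resolution 1), leaving out the 4 genes, all markers and listed genes, and mitochondrial and sex-linked genes. A class was clustered again on 2000 genes for its subtypes. Clusters were named from their 5 best markers, with at least 3 detected in 10% of nuclei. Clusters were left out as mixed by their leading genes and by whether another class scored over 0.4 of the first. Low UMIs were a further ground for leaving a cluster out. Sub-clusters with over 0.4 doublet calls were also left out. Those with under 30 nuclei got no subtype name but could stay in their class. These limits were chosen once the clusters had been looked at. Names thus mean nuclei that are like that type by these markers, so that values may differ from those under the original annotation. Doublets called by Scrublet (expected rate 0.08) were otherwise kept. SCTransform, integration and label transfer, and the Wilcoxon test over nuclei, were not repeated, since nuclei of a library are not replicates.

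UMIs were summed per library and cell type with at least 10 nuclei in every library and tested with edgeR 4.0.16 (R 4.3.3; filterByExpr, TMM, quasi-likelihood test, Benjamini-Hochberg adjustment over all genes of a cell type). Differences of effects were tested as an interaction with library as a block, under the main settings and names. Libraries were left out in turn only for pairs of astrocyte subtypes. Shares and levels at a fixed mix were compared by two-sided exact permutation over libraries (smallest p 0.1, so that 0.05 cannot be reached). The fit was also run on simulated counts, with a dispersion common to all genes of a cell type. It recovered 87.5% of 200 genes shifted by 1 (log2) in astrocytes, 83.5% in telencephalic-type astrocytes and 53.0% in multiciliated ependymal cells. False calls numbered 7, 9 and 7 in these cell types.

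The genes named are the 4 members in every named cell type, up to 4 called genes of largest change in each list in astrocytes, and the 3 genes with the profile most like each member. Genes of the lists named for telencephalic-type astrocytes, and filament genes named as not called, were picked after their values were seen. The members and lists were chosen with earlier results of these data known. Alternatives were no TMM, DESeq2 1.42.0, no filter on low counts, a replicate block, each library left out, sex (from Xist and Y-linked genes) as a covariate, no mitochondrial filter, doublet calls left out, resolution 2, mixed clusters included, the other mix, and thinning to 3000 UMIs or none. Leaving out LPA-dominated sub-clusters, and the fixed mix for Vim, Nes and Synm, were added after seeing the data. Protein sequences were not used here.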

Additional observations from a re-analysis of the deposited data

Results flagged for a closer look

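The LPA effect on 3 of the genes differed between cell types by a test of the difference itself. On the log2 scale, the effect on Vim was higher in Myoc Thbs4 than in telencephalic-type astrocytes by 1.40, and that on Gfap was lower by 0.45 (-0.45). Without the LPA-dominated sub-cluster, a setting chosen after seeing the data, the difference for Gfap was -0.68 and that for Vim was not called. The effect on Synm was lower than in astrocytes both in ependymal cells (-1.21) and in neurons (-1.13).

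Outside the named subtypes, a sub-cluster of 314 nuclei led by Sfta3-ps and cilia genes such as Cfap43 and Dnah6, which clustered with astrocytes and stayed unnamed, held Gfap at 216, 387 and 430 CPM in LPA libraries (mean 344) and at 70.1, 58.9 and 60.3 in vehicle libraries. The groups did not overlap, the vehicle values rest on 16 UMIs, and the difference was not tested. Its LPA libraries held 66.9% of its nuclei.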

How the results depend on the processing

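The rise of Gfap in astrocytes as a class was called under the other settings and without each library in turn (1.26 to 1.43), but not without sub-cluster 5 (0.17), where Vim reversed (-0.51). The cause was not tested in any of the changes below, beyond the fewer nuclei or samples that a setting itself leaves.

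Without the mitochondrial filter the following changed: Vim in astrocytes (0.27), Nes and Synm in vascular cells (0.44 and 0.15) and Gfap in telencephalic-type astrocytes (0.24) and oligodendrocyte precursors (1.54) lost their calls, Vim in telencephalic-type astrocytes (-0.92) and Gfap in endothelial (1.46) and meningeal cells (1.57) and homeostatic microglia (1.93) gained one, and values turned sign for Vim in ependymal cells (-0.091), endothelial (-0.26), meningeal (0.76, called) and multiciliated ependymal cells (-0.0015), Nes in endothelial (-0.19) and multiciliated ependymal cells (0.0021) and Gfap in Myoc Thbs4 astrocytes (0.35). With mixed clusters included, Vim in astrocytes lost its call (0.39), Vim (1.05) and Gfap (1.55, reversed) in Myoc Thbs4 astrocytes and Gfap in Slc6a11 Agt astrocytes (0.58) and homeostatic microglia (1.29) gained one, and Synm in endothelial cells (0.048) and Vim in pericytes (0.032) turned sign. Gfap in Myoc Thbs4 astrocytes also turned at resolution 2 (0.45) and without the filter on low counts (0.026), a setting in which Vim was called in telencephalic-type astrocytes (-0.79) and Gfap in immune (1.39) and endothelial cells (1.87). At resolution 2 Gfap was also called in endothelial cells (1.89). Leaving out doublet calls turned Vim in endothelial cells (-0.053) and called Gfap in homeostatic microglia (1.94). DESeq2 did not call Vim in astrocytes (0.61) or Gfap in ependymal cells (1.44), telencephalic-type astrocytes (0.39) or oligodendrocyte precursors (1.79), and gave no adjusted p for Gfap in multiciliated ependymal cells. Without TMM, Gfap was not called in telencephalic-type astrocytes (0.34) or multiciliated ependymal cells (1.47). The LPA libraries came from 1 male and 2 females and the vehicle libraries from 2 males and 1 female, by Xist and Y-linked genes. With sex as a covariate Gfap was not called in ependymal cells (1.29), multiciliated ependymal cells (1.21), neurons (1.06) or myelinating oligodendrocytes (0.96), and Synm in endothelial cells turned (0.093). At the subtype mix of the LPA libraries, the difference at a fixed mix turned for Gfap (11.4 to -5.60 CPM) and Vim (-2.60 to 1.08 CPM). Thinning to 3000 UMIs or none changed no direction of a share.

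The labels number the libraries 1 to 3 in each group without saying that a number marks a shared litter or day, and deviations of same-numbered libraries correlated at -0.13 to 0.18 in astrocytes, so the numbers were not taken as pairs. With the replicate block, Gfap was not called in multiciliated ependymal cells (1.37), neurons (1.06) and myelinating oligodendrocytes (0.95), was called in endothelial cells (1.87), and no other call changed.

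With each library left out in turn, values ranged as follows where a call or sign changed. For Gfap these were 1.23 to 1.72 in ependymal cells, 1.20 to 1.81 in multiciliated ependymal cells, 1.02 to 1.14 in neurons, 0.89 to 1.28 in vascular cells, 1.54 to 2.67 in endothelial cells, 0.86 to 1.04 in myelinating oligodendrocytes, 1.54 to 2.17 in oligodendrocyte precursors and 0.32 to 0.46 in telencephalic-type astrocytes. For Vim they were 0.53 to 0.74 in astrocytes, -0.040 to 0.40 in ependymal cells, -0.16 to 0.22 in multiciliated ependymal cells (-0.19 to 0.37 without their LPA-dominated sub-cluster), -0.067 to 0.41 in vascular cells, -0.23 to 0.20 in endothelial cells and -0.38 to 0.090 in meningeal cells. For Nes they were -0.28 to 0.029 in multiciliated ependymal and -0.044 to 0.65 in meningeal cells, and for Synm 0.43 to 0.79 in vascular and -0.23 to 0.079 in endothelial cells. The difference of effects between Myoc Thbs4 and telencephalic-type astrocytes ranged from -0.56 to -0.32 for Gfap (-0.82 to -0.53 without sub-cluster 5) and from 1.27 to 1.54 for Vim (-0.20 to 0.62 without it). That between Slc6a11 Agt and telencephalic-type astrocytes ranged from -0.20 to 0.13 for Gfap and from -0.011 to 0.35 for Synm. Of the lists in astrocytes, 1 to 2 linkers, 3 to 7 regulators, 1 to 2 progenitor genes and 0 to 1 other filament proteins were called.

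Nes and Synm rest on under 200 UMIs in astrocytes. The level of a gene in a class depends on which nuclei carry the name, and counts of nuclei cover only what the sort and the kit recovered.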

Other observations

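A small unnamed sub-cluster next to the ependymal cells, 73 nuclei led by Sfta3-ps, C4b, Thbs4 and Gfap, held Gfap at 198, 240 and 258 CPM in LPA libraries and at 0, 320 and 0 in vehicle libraries, the latter from 3 UMIs. Cells forming cilia, named for Mcidas and Deup1, numbered 19, 26 and 33 in LPA libraries and 2, 1 and 3 in vehicle libraries. They had 11 Gfap UMIs after LPA and 0 after vehicle, and 16 Vim UMIs in all. Activated microglia numbered 112, 172 and 173 nuclei after LPA and 0, 0 and 1 after vehicle, and held 23 Gfap UMIs in all.

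Nuclei with 5 or more Gfap UMIs after thinning to 1500 made up a smaller share of Myoc Thbs4 astrocytes after LPA (3.90%, 4.45% and 5.95%) than after vehicle (8.97%, 7.92% and 9.09%), although their share of all astrocytes was larger after LPA (1.10% ± 0.216 against 0.545% ± 0.121). In both cases the groups did not overlap (two-sided exact permutation p = 0.1, the smallest possible, n = 3 per group). The vehicle share in the subtype rests on 23 nuclei.

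Over all nuclei kept, without cell types, Gfap stood at 61.8, 58.8 and 59.4 CPM in LPA libraries and at 21.0, 22.6 and 18.9 in vehicle libraries, and Synm at 9.69 to 10.0 and 8.13 to 11.3.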
